A study of Mus musculus with 48 samples.

Results

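AP-1 and immediate early genes were examined in mouse R1 embryonic stem cells, a male line of the 129SV strain, across 3 lines with 3 polyadenylated RNA-seq libraries each. The group holds 10 of the 48321 rows of the deposited table, chosen by symbol alone: the Fos family (Fos, Fosb, Fosl1, Fosl2), the Jun family (Jun, Junb, Jund), the related factor Atf3, and Egr1 and Ier2. The dKO line carries knockouts of both Mll3 and Mll4, the histone H3 lysine 4 methyltransferases now named Kmt2c and Kmt2d. The dCD line carries catalytically deficient Mll3 and Mll4. WT is the unedited line. All 3 lines were cultured without serum in 2i+LIF, that is with the MEK inhibitor PD0325901, the GSK3b inhibitor CHIR99021 and the cytokine LIF, and were moved onto fibronectin before collection. Each genotype is represented by a single line, so the effect of a clone cannot be told apart from that of its genotype. Whether replicates were grown as separate cultures is not stated, and the p-values therefore measure spread among libraries that may be technical repeats.

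AP-1 is a dimer of basic leucine zipper (bZIP) proteins. Jun proteins pair with each other or with a Fos protein, whereas Fos proteins need a Jun partner to bind DNA. Many of these genes are immediate early genes, transcribed within minutes of growth factor, adhesion or stress signals without new protein synthesis, through ERK, JNK and p38 kinases acting on SRF, its ternary complex partners, CREB-type factors and Jun itself. The MEK inhibitor of the 2i medium blocks the ERK branch, which otherwise promotes exit from naive pluripotency.

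Abundance is given in TPM, reads scaled by gene length and by the library's total, so genes can be compared with each other. Depth was 21090624 to 56249770 recovered reads per library. Kmt2c measured 7.44 to 7.995 TPM in dKO, 25.3 to 28.6 TPM in dCD and 19.7 to 21.9 TPM in WT. Kmt2d measured 80.5 to 84.8 TPM in dKO, 54.6 to 67.8 TPM in dCD and 65.2 to 67.4 TPM in WT, and since the edited region is not stated, reads over this gene check nothing. All 12 listed markers of embryonic stem cells, among them Pou5f1 and Sox2, reached at least 1 TPM in every line. Fold changes are limma log2 values on the log2(TPM + 1) scale, which understates changes of low genes, and a gene passed at a Benjamini-Hochberg adjusted p under 0.05 over 16179 tested genes.

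Fosl2, Jun, Junb, Atf3 and Fos rose in both edited lines, and the bases before their annotated starts are shown because these genes moved together. The windows come from RefSeq on GRCm38.p6, 250 bases before the start, 5′ to 3′ on the gene's strand. Capitals mark matches, on either strand, to the CRE core TGACGT, the AP-1 site TGACTCA, the variant Jun site TGACATCA, the TATA motif TATAAA and the CArG box bound by SRF.
Fos: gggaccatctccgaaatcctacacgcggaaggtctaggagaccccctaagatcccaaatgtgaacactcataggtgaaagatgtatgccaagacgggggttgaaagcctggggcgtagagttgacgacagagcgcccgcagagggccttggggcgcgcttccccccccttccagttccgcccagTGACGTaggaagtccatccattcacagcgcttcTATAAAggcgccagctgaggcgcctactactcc
Jun: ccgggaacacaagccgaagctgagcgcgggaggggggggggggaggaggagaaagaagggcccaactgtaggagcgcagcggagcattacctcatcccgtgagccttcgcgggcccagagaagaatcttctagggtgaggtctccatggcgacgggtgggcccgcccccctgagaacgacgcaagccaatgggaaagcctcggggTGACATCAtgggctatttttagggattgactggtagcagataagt
Atf3: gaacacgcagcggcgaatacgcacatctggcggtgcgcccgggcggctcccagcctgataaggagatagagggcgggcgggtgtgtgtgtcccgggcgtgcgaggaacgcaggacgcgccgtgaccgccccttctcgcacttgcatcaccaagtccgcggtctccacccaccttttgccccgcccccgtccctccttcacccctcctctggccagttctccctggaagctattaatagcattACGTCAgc
Junb: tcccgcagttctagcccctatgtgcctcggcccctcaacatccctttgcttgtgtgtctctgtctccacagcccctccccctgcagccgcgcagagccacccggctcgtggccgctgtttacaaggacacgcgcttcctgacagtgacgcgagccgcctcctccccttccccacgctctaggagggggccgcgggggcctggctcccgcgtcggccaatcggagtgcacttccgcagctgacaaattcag
Fosl2: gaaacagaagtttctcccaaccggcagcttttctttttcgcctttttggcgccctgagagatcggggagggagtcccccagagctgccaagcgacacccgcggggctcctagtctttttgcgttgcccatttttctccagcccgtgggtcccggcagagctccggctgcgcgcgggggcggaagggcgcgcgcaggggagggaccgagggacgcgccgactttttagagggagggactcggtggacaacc
The Fos window lies on the plus strand at chr12:85473640-85473889 and that of Fosl2 on the plus strand at chr5:32136222-32136471. On the minus strand lie the windows of Jun at chr4:95052223-95052472, Atf3 at chr1:191183334-191183583 and Junb at chr8:84978749-84978998. Of the 7 members with a window (the same 5, Fosb and Jund), Fos and Atf3 held the CRE core, which 6.47% of all 32851 windows of this length hold. Jun held the variant Jun site, found in 2.93% of windows, at positions -45 to -38. Fos alone of the 7 held TATAAA (12.4% of windows), at -33 to -28. No member window held TGACTCA (4.46% of windows) or a CArG box (1.47% of windows), which says only that these letters are not in these windows. No matches overlapped, and the motifs were chosen with the sequences in view.

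In the comparison of dKO with WT, which sets the knockout line beside the unedited line, 8 of 8 tested members were higher. Among tested genes as a whole, 43.4% passed as higher and 28.4% as lower. At least 2-fold, 4 of the 8 were higher (Fosl2, Atf3, Junb and Jun), against 6.01% of all tested genes. The median log2 fold change of the tested members was 1.25, against 0.10 for all tested genes. Of the calls over all genes 60.4% were higher in dKO, and after median-ratio scaling between libraries 49.9% were. The other 2 members, Fosb and Egr1, stayed under the minimum of 1 TPM in 3 libraries, and Fosl2 and Fosl1 passed that minimum only through dKO and dCD (none and 1 of the 3 WT libraries reached 1 TPM), so these counts describe the 8 that passed it. All dKO libraries lay above all WT libraries for 9 of the 10 members, Fosb being the exception, as they did for 45% of tested genes (29.4% lay wholly below). In bulk RNA, fewer cells of a type and less RNA per cell cannot be told apart.

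In the comparison of dCD with WT, which sets loss of catalytic activity beside the unedited line, 5 of 8 tested members were higher, all of them at least 2-fold: Jun, Atf3, Fosl2, Junb and Fos. Among tested genes as a whole, 28.9% passed as higher and 29.5% as lower, and 4.62% were higher at least 2-fold. The median of the tested members was 1.39, against -0.01 for all tested genes. Jund, Fosl1 and Ier2 did not pass. Fosl2 and Fosl1 met the minimum for testing only through the edited lines, so these counts describe the 8 members that passed it. All dCD libraries lay above all WT libraries for 6 of the 10 members, the same 5 and Egr1, as they did for 31.2% of tested genes (32.3% lay wholly below). The comparisons with WT share the WT libraries. By limma's moderated F test 8 of 8 tested members differed among the 3 lines, as did 82.6% of all tested genes.

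**Figure D1:**
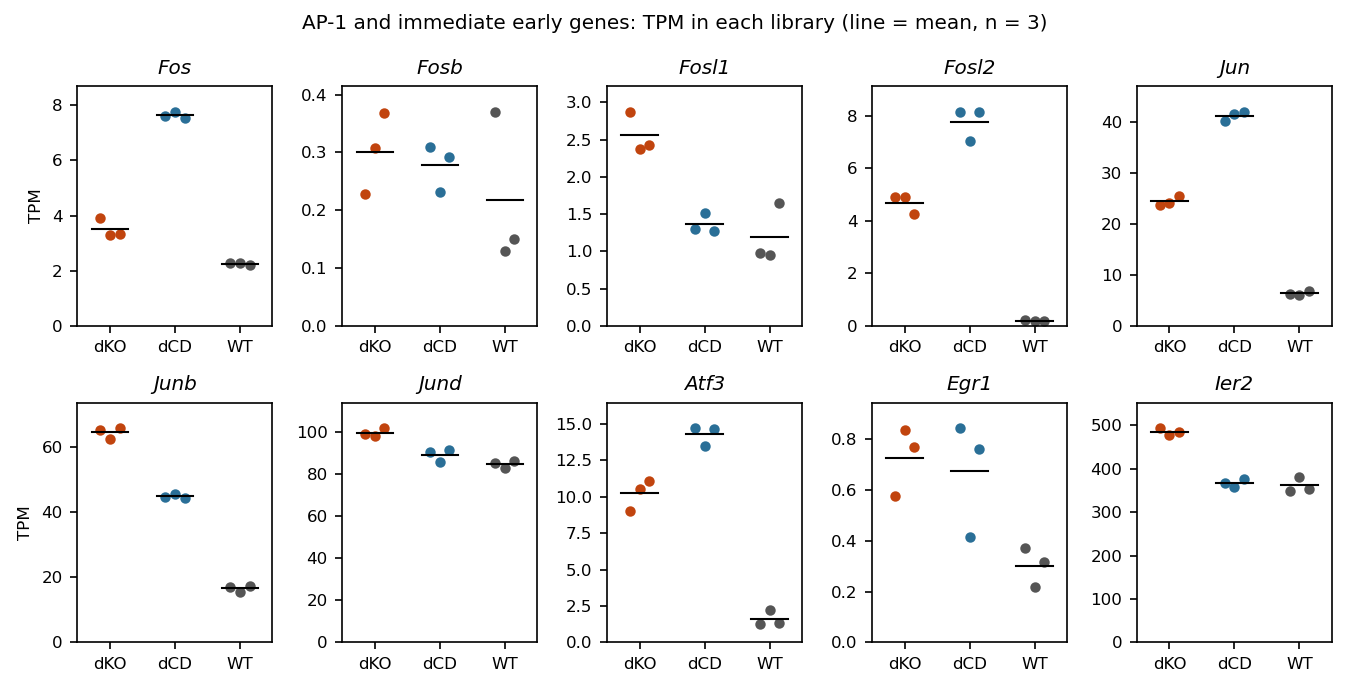
TPM (vertical axis, from 0, scaled for each gene) of the 10 members in the 3 libraries each of dKO, dCD and WT, with points for libraries and lines for means. For Jun, Junb, Atf3, Fosl2 and Fos all dKO and dCD libraries lie above all WT libraries, and Ier2 reaches 478.9 TPM or more only in dKO.

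Of the Jun family, Jun is the founding member; its protein is activated by JNK and binds its own promoter. Jun measured 23.8, 24.1 and 25.6 TPM in dKO, 40.3, 41.7 and 42.1 TPM in dCD, and 6.33, 6.001 and 6.90 TPM in WT. The 3 lines did not overlap, with dCD highest. Its log2 fold change was 1.78 in dKO (SE 0.04998, limma adjusted p = 4.52e-10) and 2.52 in dCD (SE 0.04998, limma adjusted p = 1.31e-10) against WT. The direct contrast of dKO with dCD was -0.73 (limma adjusted p = 4.20e-07).

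Junb, which in many settings counters Jun and is itself an immediate early gene, took the other order. It measured 65.2, 62.5 and 65.8 TPM in dKO, 44.7, 45.5 and 44.3 TPM in dCD, and 17.1, 15.4 and 17.3 TPM in WT. Every dKO library was above every dCD library, and every dCD library above every WT library. The log2 fold change was 1.90 in dKO (SE 0.0434, limma adjusted p = 1.04e-10) and 1.38 in dCD (SE 0.0434, limma adjusted p = 3.02e-09), and dKO exceeded dCD by 0.51 (limma adjusted p = 2.16e-06).

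Jund, the member that is expressed most steadily across resting cells, changed least in the family. It measured 99.3, 98.2 and 101.9 TPM in dKO, 90.7, 86.02 and 91.4 TPM in dCD, and 85.4, 83.1 and 86.4 TPM in WT. All dKO libraries were above the rest, whereas dCD and WT overlapped. The log2 fold change in dKO was 0.23 (SE 0.0296, limma adjusted p = 4.68e-05), which became 0.13 after median-ratio scaling. In dCD it was 0.07 (95% interval 0.01 to 0.14, limma adjusted p = 0.0599), and without dCD replicate 2 it passed at 0.10 (limma adjusted p = 0.0135). At the same 0.07 it also passed with the replicate block (limma adjusted p = 0.0309), after median-ratio scaling (limma adjusted p = 0.0346) and after quantile normalization (limma adjusted p = 0.0465). The dKO minus dCD difference of 0.16 (limma adjusted p = 0.000773) did not pass after median-ratio scaling (0.05, limma adjusted p = 0.0997).

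Within the Fos family, Fosl2 (Fra-2), a member without the strong activation domain of Fos, had the largest ratio to WT. It measured 4.92, 4.92 and 4.25 TPM in dKO, 8.16, 7.05 and 8.13 TPM in dCD, and 0.24, 0.20 and 0.18 TPM in WT. The WT values rest on 18, 24 and 11 reads, against 357 to 471 reads in dKO and 661 to 1336 reads in dCD, and the lines did not overlap. Mean TPM was 22.8 times the WT mean in dKO and 37.7 times in dCD. Fosl2 met the minimum for testing only through the edited lines, so its test was open to it only because it was high there. The log2 fold changes were 2.24 in dKO (SE 0.0842, limma adjusted p = 3.69e-09) and 2.86 in dCD (SE 0.0842, limma adjusted p = 1.91e-09), and with voom on recovered reads they were 4.37 and 5.21. The dKO minus dCD difference was -0.62 (limma adjusted p = 7.47e-05).

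Fos, whose transcript is short-lived and rises fast after stimulation, was low in all lines and highest in dCD. It measured 3.90, 3.31 and 3.33 TPM in dKO, 7.60, 7.77 and 7.54 TPM in dCD, and 2.29, 2.28 and 2.20 TPM in WT. The lines did not overlap, and the lowest count was 33 reads, in WT replicate 3. The log2 fold change was 0.47 in dKO (SE 0.0687, limma adjusted p = 0.000124) and 1.41 in dCD (SE 0.0687, limma adjusted p = 6.56e-08). The dKO minus dCD difference, -0.94 (limma adjusted p = 7.23e-07), was the largest in size among the tested members.

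Fosl1 (Fra-1), a sustained-phase member that in many cells depends on prior AP-1 activity, was higher in dKO alone of the edited lines. It measured 2.88, 2.37 and 2.43 TPM in dKO, 1.30, 1.51 and 1.28 TPM in dCD, and 0.98, 0.95 and 1.66 TPM in WT, on 13 to 40 reads per library. The dKO libraries were above all others, and dCD overlapped WT. Fosl1 reached 1 TPM in 1 WT library, so it too met the minimum for testing only through the edited lines. The log2 fold change was 0.71 in dKO (SE 0.131, limma adjusted p = 0.000623), or 1.07 with voom. In dCD it was 0.12 (95% interval -0.17 to 0.41, limma adjusted p = 0.463), and dKO exceeded dCD by 0.59 (limma adjusted p = 0.00225). Fosb, the remaining Fos protein gene, lay between 0.13 and 0.37 TPM in all 9 libraries, on 6 to 31 reads. Its 3 lines overlapped, and without a filter on low values its log2 fold changes were 0.10 in dKO and 0.08 in dCD (limma adjusted p = 0.401 and 0.568).

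**Figure D2:**
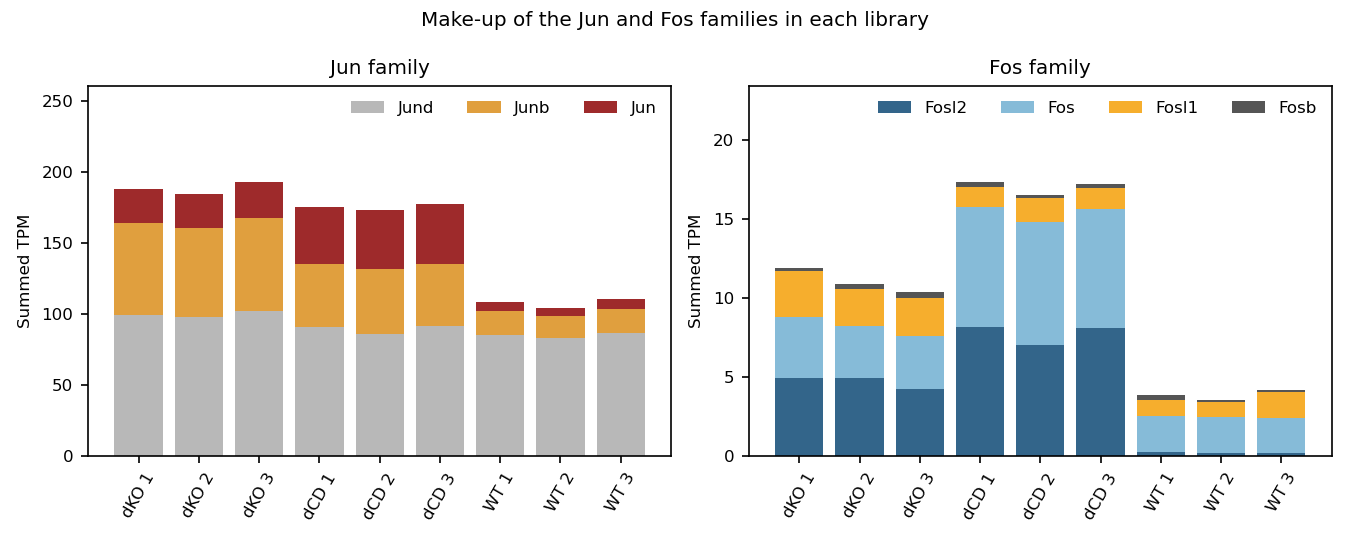
Summed TPM (vertical axis, from 0) of the Jun family (left) and the Fos family (right) in each of the 9 libraries, stacked by gene and ordered dKO, dCD, WT. The Jun and Junb parts are larger in dKO and dCD than in WT, and Fosl2 supplies 5.36% of the Fos family sum in WT on average.

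The make-up of the families differed between the lines, given here as a description. The Jun family summed to 188.8 ± 4.26 TPM in dKO, 175.5 ± 2.31 TPM in dCD and 108.0 ± 3.11 TPM in WT (SD, n = 3 each), but after median-ratio scaling dKO and dCD stood at 179.3 and 179.4 TPM. Jund made up 52.9 ± 0.23% of that sum in dKO, 50.9 ± 1.07% in dCD and 78.7 ± 0.75% in WT. Jun made up 13.0 ± 0.30% in dKO, 23.5 ± 0.58% in dCD and 5.93 ± 0.27% in WT. The share of Junb was 34.2 ± 0.41% in dKO, 25.5 ± 0.69% in dCD and 15.4 ± 0.56% in WT. Jun family transcripts were thus mostly Jund in WT, while in the edited lines Jun and Junb together made up nearly as much as Jund.

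The Fos family summed to 11.1 ± 0.79 TPM in dKO, 17.1 ± 0.43 TPM in dCD and 3.88 ± 0.32 TPM in WT. Fosl2 supplied 42.4 ± 2.31% of it in dKO, 45.6 ± 2.60% in dCD and 5.36 ± 0.98% in WT. Fos supplied 31.7 ± 1.22% in dKO, 44.8 ± 1.82% in dCD and 58.6 ± 5.71% in WT. Fos family transcripts were a minor part of Fos and Jun transcripts together in every line, at 5.54 ± 0.43% in dKO, 8.86 ± 0.13% in dCD and 3.46 ± 0.18% in WT.

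Atf3, a stress-induced bZIP factor that pairs with Jun proteins and often represses, rose with them. It measured 9.05, 10.6 and 11.1 TPM in dKO, 14.7, 13.5 and 14.7 TPM in dCD, and 1.25, 2.22 and 1.31 TPM in WT. No lines overlapped. The log2 fold change was 2.13 in dKO (SE 0.129, limma adjusted p = 1.36e-07) and 2.58 in dCD (SE 0.129, limma adjusted p = 7.71e-08), and the dKO minus dCD difference was -0.45 (limma adjusted p = 0.0104).

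Egr1, a zinc finger factor that is a direct readout of ERK and SRF signalling, stayed under 1 TPM throughout. It measured 0.58, 0.83 and 0.77 TPM in dKO, 0.84, 0.41 and 0.76 TPM in dCD, and 0.37, 0.22 and 0.32 TPM in WT, on 9 to 58 reads. The edited lines lay above WT but overlapped each other. Without a filter on low values the log2 fold change was 0.41 in dKO (limma adjusted p = 0.0204) and 0.35 in dCD (limma adjusted p = 0.0469).

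Ier2, a short nuclear regulator induced by growth factors, had the highest level of the group in every line. It measured 493.5, 478.9 and 484.6 TPM in dKO, 367.9, 359.0 and 376.6 TPM in dCD, and 349.8, 381.0 and 353.7 TPM in WT. The dKO libraries were above all others, and dCD and WT overlapped. The log2 fold change was 0.43 in dKO (SE 0.0328, limma adjusted p = 8.89e-07) and 0.03 in dCD (95% interval -0.05 to 0.10, limma adjusted p = 0.533), and dKO exceeded dCD by 0.40 (limma adjusted p = 1.76e-06).

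The order of mean levels was Ier2, Jund, Junb, Jun in all 3 lines, with no overlap between neighbours in that order. Below Jun, dKO and dCD shared the order Atf3, Fosl2, Fos, Fosl1, Egr1, Fosb, where in dCD the libraries of Fosl2 and Fos overlapped. In WT the order was Fos, Atf3, Fosl1, Egr1, Fosb, Fosl2, so Fosl2 had the lowest mean of the 10 there and ranked sixth in the edited lines. In WT the neighbours Fos and Atf3, Atf3 and Fosl1, Egr1 and Fosb, and Fosb and Fosl2 overlapped.

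In the direct comparison of dKO with dCD, 4 of 8 tested members were higher (Fosl1, Ier2, Junb and Jund) and 4 lower (Fos, Jun, Fosl2 and Atf3), where 42.3% of the whole table passed as higher and 27% as lower. Junb, Ier2, Fosl1 and Jund had all dKO libraries above dCD, and Jun, Fos, Fosl2 and Atf3 had all of them below, where 44.7% and 28.4% of tested genes did so. No difference reached 2-fold by limma, also at an unadjusted p under 0.05, while 3.6% of tested genes exceeded it upward and 7.36% downward. Fos alone did so elsewhere, at -1.10 with a pseudocount of 0.1, -1.02 after median-ratio scaling and -1.23 with voom. Over all genes 61.0% of calls were higher in dKO, and after median-ratio scaling 48.9% were.

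**Figure D3:**
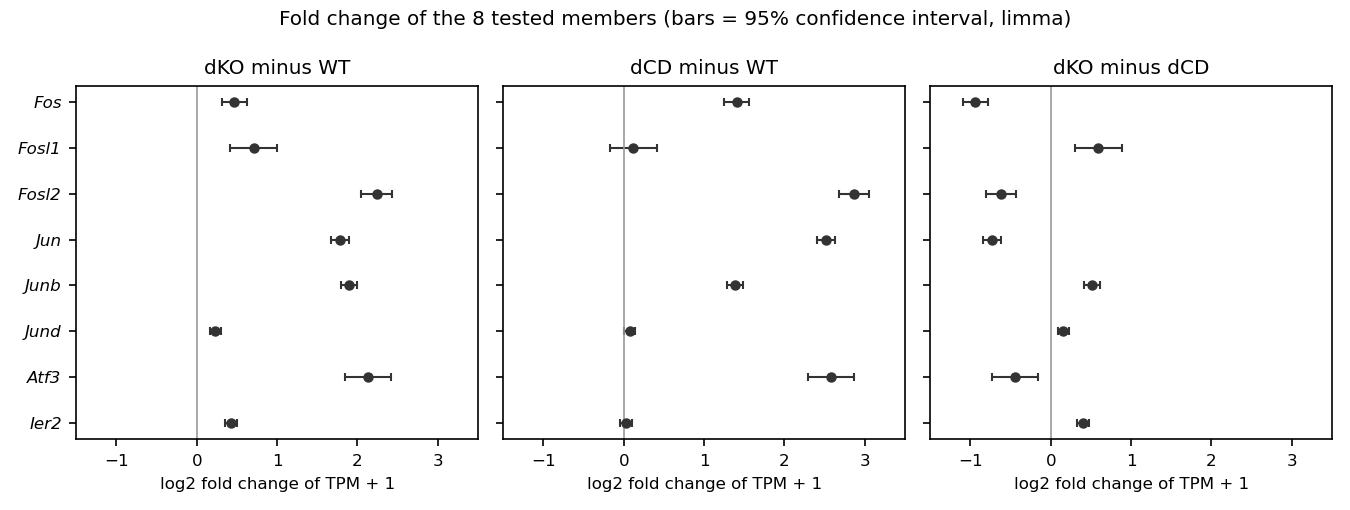
Log2 fold change of TPM + 1 (horizontal axis) of the 8 tested members in the contrasts dKO minus WT, dCD minus WT and dKO minus dCD, with points for limma estimates and bars for 95% confidence intervals. Against WT, Fosl2, Jun, Junb and Atf3 lie between 1.38 and 2.86 in both edited lines, and in the right panel Fos, Jun, Fosl2 and Atf3 lie below 0.

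Other immediate early genes moved in both directions in dKO. Of 44 listed, 39 were tested, and 19 were higher and 19 lower in dKO, with a median log2 fold change of 0.16, where 43.4% of tested genes were higher and 28.4% lower. That median was 0.06 after median-ratio scaling, 0.09 without WT replicate 3 and -0.02 at a minimum of 5 TPM. At least 2-fold, 2 were higher and 6 lower, where 6.01% and 7.89% of tested genes were. In dCD 20 were higher and 10 lower (28.9% and 29.5% of tested genes), with a median of 0.10, and 11 were higher at least 2-fold, where 4.62% of tested genes rose and 2.32% fell by that much. In the direct contrast 8 were higher in dKO and 27 lower, where 42.3% of tested genes were higher and 27% lower.

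The matricellular genes Cyr61 and Ctgf, targets of YAP and SRF as well as immediate early genes, had the smallest adjusted p among the list's higher genes in dCD. Cyr61 averaged 27.9 ± 0.29 TPM in dKO, 175.5 ± 7.39 TPM in dCD and 24.2 ± 1.37 TPM in WT (SD, n = 3 each), with log2 fold changes of 0.20 in dKO and 2.81 in dCD against WT. Ctgf averaged 22.0 ± 0.46 TPM in dKO, 73.2 ± 1.23 TPM in dCD and 19.6 ± 0.33 TPM in WT, with log2 fold changes of 0.16 and 1.85. The survival kinase gene Pim1 fell in both, by 2.19 in dKO and by 0.75 in dCD on the log2 scale. The stress gene Gadd45b fell by 1.23 in dKO and was higher by 0.80 in dCD. The Polo-like kinase gene Plk2 and the antiproliferative gene Btg1 rose in dKO by 0.76 and 0.75, and Klf10, a target of TGF-beta, had a log2 fold change of -0.48 in dCD. All of these passed the limma test, but in dKO the calls of Cyr61 and Ctgf were lost after median-ratio scaling (0.10 and 0.06). Both calls were also lost after quantile normalization (0.10 and 0.07) and with voom (0.10 and 0.06). Egr2, Egr3, Egr4, Nr4a3 and Npas4 stayed under the minimum for testing.

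Among other bZIP partners, 3 of 11 tested were higher and 2 lower in dKO, and 5 were higher and 3 lower in dCD, with medians of 0.07 in both, where the shares of all tested genes were 43.4% and 28.4% in dKO and 28.9% and 29.5% in dCD. After median-ratio scaling the dKO median turned to -0.01, with 4 lower. Without dCD replicate 1, 2 or 3 the number higher in dCD was 3 of 9 tested each time, and without replicate 1 the median was 0.01. Batf3, a partner of Jun proteins, averaged 2.88 ± 0.20 TPM in dKO, 2.75 ± 0.26 TPM in dCD and 0.35 ± 0.17 TPM in WT, with log2 fold changes of 1.53 and 1.48 (limma adjusted p = 6.36e-07 and 1.75e-06). It met the minimum for testing only through the edited lines, so its test was open to it only because it was high there. Mafa, a large Maf factor, fell by 2.75 in dKO and was at -0.24 in dCD, a call lost without dCD replicate 1 or 2 or WT replicate 3. The small Maf genes Mafg and Mafk, which lack an activation domain, were higher by 0.58 in dKO and by 0.53 in dCD. Jdp2, a Jun partner that represses, was at -0.29 in dCD, and Maff fell by 0.57 in dKO and by 0.31 in dCD.

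Upstream, Srf itself was higher, at 96.3 ± 1.47 TPM in dKO, 85.4 ± 4.16 TPM in dCD and 66.4 ± 1.83 TPM in WT (log2 fold changes 0.53 and 0.36, limma adjusted p = 3.26e-07 and 1.31e-05). Of 11 tested SRF, cofactor and CREB genes, 9 were higher and 1 lower in dKO, with a median of 0.50, and 3 were higher and 2 lower in dCD, with a median of -0.01. Among tested genes as a whole, 43.4% rose and 28.4% fell in dKO, and 28.9% rose and 29.5% fell in dCD. Crtc2, a CREB coactivator, was higher by 0.57 and 0.44 in the same lines. In dCD the ternary complex factors Elk3 and Elk4 were at -0.38 and -0.20, the call of Elk4 being lost without dCD replicate 2 or WT replicate 1 or 3, and in dKO Atf1 fell by 0.18. Of 18 tested MAP kinase cascade genes, 10 were higher and 4 lower in dKO (6 higher after median-ratio scaling) and 5 were higher and 5 lower in dCD, with medians of 0.09 and 0.03 and no gene beyond 0.66 in size. The dKO median turned to -0.01 after median-ratio scaling and to -0.02 with voom. Mapk7 (ERK5) was higher in both, by 0.66 and 0.46, and Map2k5, its activating kinase, by 0.49 in dKO. Map2k5 passed as lower in dCD, at -0.09 (limma adjusted p = 0.0261). That dCD call was lost with voom, in the fit of 6 libraries, and without dCD replicate 2 or WT replicate 2 or 3. Map2k4, which activates JNK, was higher by 0.31 in dCD. The kinase genes Rps6ka1 and Map2k1 fell in dKO, and Mapk9 and Rps6ka5 fell in dCD.

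Genes that restrain these cascades split. Of 14 tested MAP kinase phosphatase and ERK feedback genes, 5 were higher and 7 lower in dKO. In dCD 5 were higher and 6 lower (3 higher without dCD replicate 3 or WT replicate 3). The dKO median was -0.10, or -0.20 after median-ratio scaling. The background for these counts was 43.4% passing upward and 28.4% downward in dKO, against 28.9% and 29.5% in dCD. Dusp1, a phosphatase of p38 and JNK and itself an immediate early gene, averaged 13.0 ± 0.57 TPM in dKO, 79.8 ± 3.398 TPM in dCD and 71.3 ± 3.80 TPM in WT, with log2 fold changes of -2.37 and 0.16, the dCD call being lost without dCD replicate 3 or WT replicate 2 or 3. Dusp8, a phosphatase of JNK, averaged 1.39 ± 0.09 TPM in dKO, 4.32 ± 0.14 TPM in dCD and 0.21 ± 0.02 TPM in WT, reaching the minimum only through the edited lines. Dusp4 rose by 0.84 in dKO and Dusp10 by 0.68 in dCD. The ERK feedback genes Spry2 and Spry4 fell in both lines, Spry2 by 0.57 in dKO and 0.91 in dCD, and Spry4 by 1.10 and 1.88.

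Of 9 tested genes for Jun and Fos turnover and repression, 8 were higher and 1 lower in dKO (5 higher after median-ratio scaling), and 2 were higher and 3 lower in dCD. The 2 became 1 without dCD replicate 1 or 3 or WT replicate 2 or 3. Over all tested genes the shares were 43.4% higher and 28.4% lower in dKO, and 28.9% and 29.5% in dCD. Trib2, a pseudokinase adaptor of the COP1 ligase, was at 1.81 in dKO, and Fbxw7, which marks Jun for degradation, at 0.34. Trib2 passed as lower in dCD, at -0.17 (limma adjusted p = 0.0496). That dCD call was lost under many alternatives, among them no filter, a minimum of 5 TPM, voom and the replicate block. Ncor1, a corepressor, fell by 0.76 in dCD and was at -0.10 in dKO, where it was the 1 lower gene and its call was lost without dKO replicate 2 (-0.09, limma adjusted p = 0.0615). In dCD Itch, a ubiquitin ligase gene, was higher by 0.23, and Hdac3, a histone deacetylase gene, was at -0.12.

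**Figure D4:**
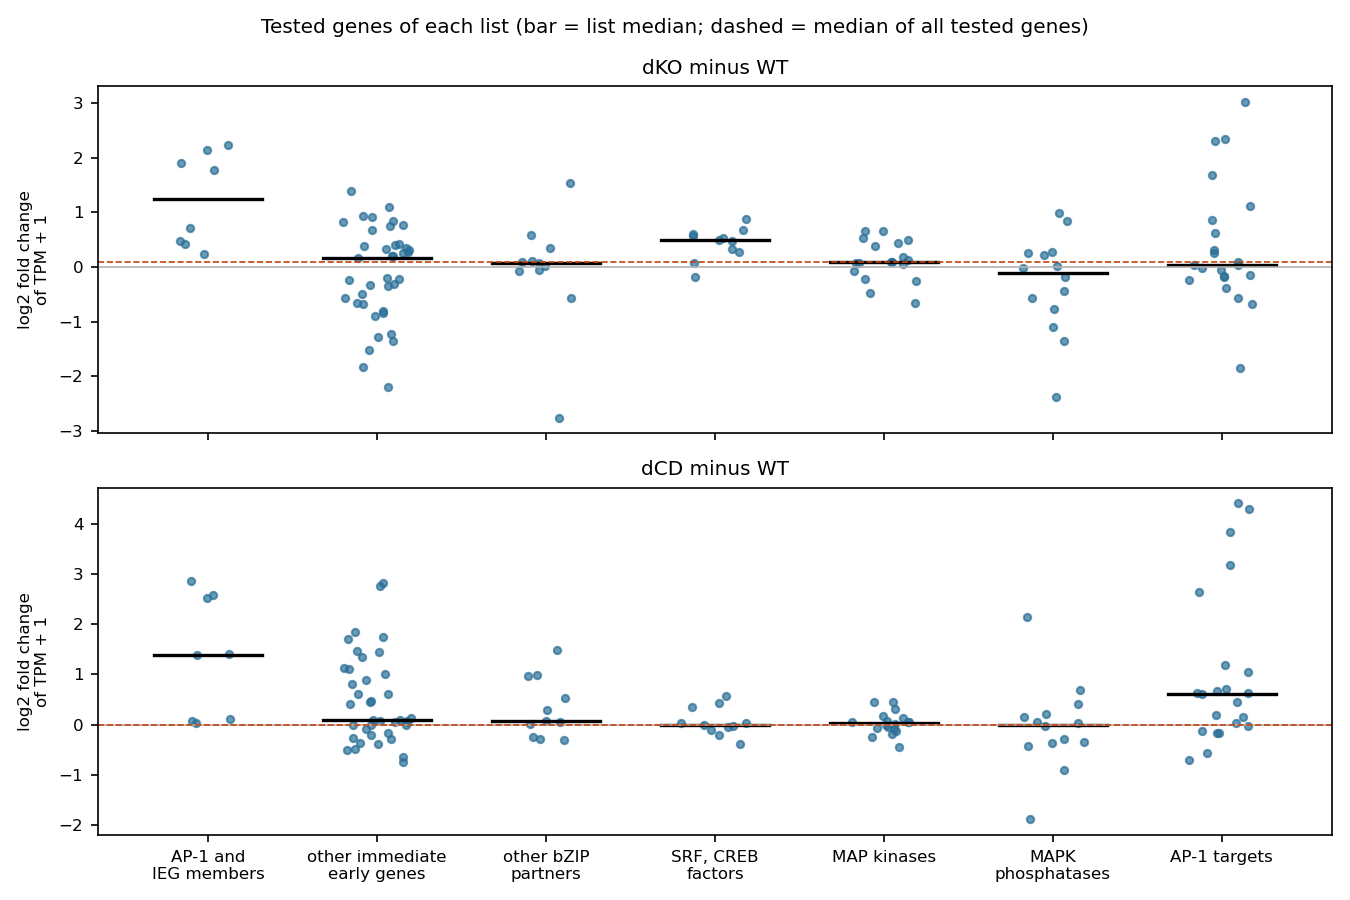
Log2 fold change of TPM + 1 (vertical axis) for the tested genes of 7 lists in dKO minus WT (top) and dCD minus WT (bottom), with a point for each gene, bars for list medians and a dashed line for the median of all tested genes. The tested members lie above 0 in both panels, and other immediate early genes spread to both sides.

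Of 30 textbook AP-1 targets, 22 were tested, and 10 were higher and 6 lower in dKO against 15 higher and 5 lower in dCD. Of all tested genes 43.4% rose and 28.4% fell in dKO, close to the list's shares, and 28.9% rose and 29.5% fell in dCD. The median was 0.03 in dKO, which turned to -0.06 after median-ratio scaling, and 0.61 in dCD. Tnc, a matrix glycoprotein, averaged 7.39 ± 0.41 TPM in dKO, 20.8 ± 0.61 TPM in dCD and 0.033 ± 0.021 TPM in WT, so it too was tested only through the edited lines. The cyclin gene Ccnd1 averaged 210.4 ± 3.38 TPM in dKO, 46.9 ± 0.25 TPM in dCD and 42.1 ± 0.27 TPM in WT, with log2 fold changes of 2.29 and 0.15. The keratin gene Krt8 was at 3.17 in dCD. Itga5, a fibronectin receptor subunit, and the small heat shock gene Hspb1 fell in dKO, and Spp1 and Dnmt1 fell in dCD. The protease targets Mmp3, Mmp10 and Mmp13 were listed at 0 in every WT and dCD library.

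Markers of other cell types and of stress were measured beside the members. Their counts stand beside a table-wide share of 43.4% called upward and 28.4% called downward in dKO. For dCD that share was 28.9% upward and 29.5% downward. The summed levels of fibroblast, primitive endoderm and trophoblast markers were below WT in dKO and above WT in dCD. In that order, the list medians of log2 fold change were 0.60, 0.15 and 0.08 in dKO. In dCD they were 0.98, 0.43 and 1.47. In the same order, 3, 6 and 4 listed markers reached 1 TPM in any WT library, whereas 6, 9 and 7 were tested. Several thus met the minimum for testing only through the edited lines, and the medians and counts describe those that passed it. Without a filter on low values the medians were 0.08, 0.22 and 0.03 in dKO and 0.31, 0.55 and 0.84 in dCD. After median-ratio scaling the trophoblast median in dKO turned to -0.01. Single genes weighed heavily in the sums, the highest in dCD reaching 290.3 TPM among primitive endoderm and 64.5 TPM among trophoblast markers. Listed stem cell markers summed to 8476 to 8547 TPM in dKO, 11725 to 12050 TPM in dCD and 15800 to 16310 TPM in WT, with 11 of 12 lower in each edited line. Fibroblast and feeder markers summed to 87.6 to 91.4 TPM in dKO, 101.3 to 108.4 TPM in dCD and 95.7 to 101.2 TPM in WT, mostly Fbln1. Of their 6 tested members 3 were higher and 2 lower in dKO and 5 higher and 1 lower in dCD. Col1a1 was at 2.94 and 2.55 and Col1a2 at 1.16 and 2.87, both under 1 TPM in WT, whereas Lum and S100a4 were at 0 in dCD and Twist2 and Fap at 0 in WT. Going the other way, Fbln1 passed as lower in both edited lines and Thy1 as lower in dKO. Primitive endoderm markers summed to 96.5 to 98.2 TPM in dKO, 337.3 to 351.7 TPM in dCD and 183.7 to 187.3 TPM in WT. Of their 9 tested members 3 were higher and 3 lower in dKO, and 5 were higher and 2 lower in dCD. Without any 1 WT replicate only 8 of them were tested, and 1 was lower in dCD. Trophoblast markers summed to 43.4 to 47.5 TPM in dKO, 112.9 to 114.5 TPM in dCD and 73.5 to 79.4 TPM in WT, with 3 of 7 tested higher and 2 lower in dKO and 5 higher and 1 lower in dCD, and Tpbpa and Prl3d1 at 0 throughout. Of 14 heat shock genes, 10 rose and 2 fell in dKO (4 and 4 after median-ratio scaling), and 10 rose and 1 fell in dCD. Cryab, a small heat shock protein gene, was at 4.47 in dKO and 4.10 in dCD, with Hspa4l, an Hsp110-type chaperone gene, at 1.45 in dKO and Hspa5, of the endoplasmic reticulum, at 0.55 in dCD. The heat shock genes that passed as lower were Hspb1 and Hsp90aa1 in dKO and Hspd1 in dCD. The part of these markers in the member values was not tested.

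The members are spread over 8 chromosomes in the GRCm38 table, with Junb, Jund and Ier2 on chromosome 8. The nearest tested protein-coding gene on each side of every member gave 20 neighbours, chosen after the member values were seen. In dKO 11 of them were higher and 5 lower, 2 of them higher at least 2-fold, and their median log2 fold change was 0.17, where 43.4% of tested genes were higher, 28.4% lower and 6.01% higher at least 2-fold, with a median of 0.10. In dCD 5 were higher and 8 lower, 1 of them higher at least 2-fold, with a median of -0.07, where 28.9% of tested genes were higher, 29.5% lower and 4.62% higher at least 2-fold, with a median of -0.01. That 1 gene was Batf3, next to Atf3, and in dKO the 2 genes were Batf3 and Reep2, next to Egr1. Gm3336, next to Jund, was lower at least 2-fold in both lines, at -1.06 in dKO and -1.22 in dCD. The neighbours of Jun, Mysm1 and Fggy, had log2 fold changes of 0.10 and -0.30 in dKO and -0.15 and 0.15 in dCD. Beside Fosl2, Rbks was at -0.09 and Ppp1cb at 0.24 in dKO, and they were at -0.11 and 0.16 in dCD. Beside Junb, Prdx2 was at 0.36 and 0.20 and Hook2 at -0.45 and -0.71. These 6 neighbours lay between -0.71 and 0.36, against 1.38 or more for Jun, Fosl2 and Junb. Atf3 differed, as both of its neighbours passed as higher in dKO. Batf3 was at 1.53 in dKO and 1.48 in dCD, and Nenf at 0.79 and 0.14. Beside Fos, Tmed10 was at 0.37 in dKO and 0.12 in dCD, and Jdp2 at -0.06 and -0.29. Whether members and neighbours changed together was not tested.

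Genes with the profile nearest to a member were found by the root mean square difference of centred log2(TPM + 1) over the 9 libraries, as a description. Nearest to Fos were Rragd, a Rag GTPase of lysosomal nutrient sensing (0.05), the immediate early GTPase gene Rhob (0.06) and Fam43a (0.07). Nearest to Jun were Zyx, a focal adhesion protein (0.09), the microfibril gene Fbn2 (0.09) and the interferon-induced GTPase gene Gbp2 (0.14). Zyx averaged 21.3 TPM in dKO, 37.4 TPM in dCD and 6.14 TPM in WT, close to the levels of Jun. Nearest to Atf3 were the ligand gene Tgfb2 (0.16), the protease gene Adamts1 (0.17) and Wls, a carrier of Wnt proteins (0.18). Egr1, which hardly varied on this scale, lay nearest to Zfp592, Tead1 and Rab33b (each 0.08).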

How the data were processed

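Of the 48 samples of the series, the 9 RNA-seq libraries were used, and the other 39 samples were not analysed here. The deposited values are TPM per gene and library, computed by the authors. Per the labels' protocols the RNA was polyadenylated. The authors' tools named in the submitters' processing notes are HISAT2, featureCounts and DESeq2, without versions or roles, and the build is mm9. The strand setting is not given in the sources used here, so reads of a gene and of an antisense or overlapping partner may be mixed. Multiplying TPM by deposited length gave whole multiples of a library-wide unit (100% of values within 0.01), taken as recovered reads.

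The test was limma 3.58.1, run in R 4.3.3 on genes reaching 1 TPM in 3 or more libraries (lmFit, eBayes with a trend, two-sided, 1 fit, 3 contrasts) on log2(TPM + 1), checked on simulated data. Tables and plots used Python 3.11.15, pandas 2.3.3, numpy 2.4.6 and matplotlib 3.10.9. Samples were grouped by title. Alternatives were a pseudocount of 0.1, no filter, a minimum of 5 TPM, median-ratio scaling, quantile normalization, voom on recovered reads, the replicate number as a block, fits of 6 libraries and leaving out each library.

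The members and lists were chosen with earlier results of these data known. Named genes were all members, up to 2 called genes per list, direction and comparison with WT by adjusted p, and the 3 nearest profiles of Fos, Jun, Atf3 and Egr1. Genes named for being at 0 or under the minimum were added after their values were seen. 1 gene that the rule names is not reported here. Promoter windows were matched by symbol for 7 of the 10 members.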

Additional observations from a re-analysis of the deposited data

Results flagged for a closer look

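All 8 tested members differed between dKO and dCD in the direct limma contrast, although the difference of Jund was lost after median-ratio scaling (0.05, limma adjusted p = 0.0997) and with voom (0.05, adjusted p = 0.245). Fos, Jun, Fosl2 and Atf3 were lower in dKO than in dCD, with log2 differences of -0.94, -0.73, -0.62 and -0.45. Fosl1, Junb, Ier2 and Jund were higher in dKO than in dCD, by 0.59, 0.51, 0.40 and 0.16. In that contrast 42.3% of the whole table passed as higher and 27% as lower.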

How the results depend on the processing

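Over 17 alternatives, 399 of 405 member values in the 3 contrasts kept their direction and their side of the threshold, and none changed sign. The other 6 concerned Jund: it passed in dCD against WT after median-ratio scaling, quantile normalization and with the replicate block, and without dCD replicate 2, and its dKO minus dCD difference was lost after median-ratio scaling and with voom. The number of members called at least 2-fold in dKO minus dCD was 0, and it was 1 with a pseudocount of 0.1, after median-ratio scaling and with voom. The Jun family sum was 179.3 TPM in dKO and 179.4 TPM in dCD after median-ratio scaling. Over all genes, 1123 were called at least 2-fold in dCD against WT, with 1744 at a pseudocount of 0.1, 695 at a minimum of 5 TPM and 1856 with voom. In dKO minus dCD 1774 were, with 2704 by voom. Of 1224 list counts under alternatives, 50 moved by more than 1.5 times. Replicates share numbers but no stated pairing: same-numbered libraries of different lines had correlations of deviations of -0.05 to 0.04 across genes, and with the replicate block 8, 6 and 8 members were called in dKO minus WT, dCD minus WT and dKO minus dCD, against 8, 5 and 8 without it. The cause of these changes was not tested. Depth limits Fosb, Egr1, Fosl1 and, in WT, Fosl2, which rest on 6 to 58 reads per library. It also limits the WT values of Atf3, on 18 to 59 reads, and of Fos, on 33 to 66 reads.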
